A study of Mus musculus with 8 samples.

Results

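Transcripts of glycolysis and of the response to low oxygen were followed in mouse lung after carbon nanotubes were placed in the airways. The list held 32 genes, chosen by gene symbol: the enzymes and transporters of glycolysis, and genes that hypoxia-inducible factor is known to switch on, with the gene of its own oxygen-regulated subunit. Of these, 30 had an array probe set with a single gene symbol, among 18192 such genes in all, and 29 were tested among 13853 genes. Gapdh, a glycolytic enzyme, was measured only by 3 control probe sets and is described without a test. Gpi1 and Eno1 were not analysed here. Where a gene had several probe sets, it is represented by the one with the highest mean over the 8 arrays.

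The tissue was lobe 1 of the right lung, taken from outbred male ICR mice that the labels give as 5 to 6 weeks old. Each of the 4 groups had 2 arrays: SWCNT on day 7, PF68 on day 7, SWCNT on day 1 and PF68 on day 1. SWCNT mice had received 1 dose of 0.5 mg of single-walled carbon nanotubes into the trachea under pentobarbital and through a cut in the neck, suspended in 50 µl of a 0.1% solution of the surfactant Pluronic F-68 (PF68). PF68 mice had received the solvent without the tubes by the same route, so all 4 groups had the anaesthesia, the cut and the surfactant, and none was left untreated. The study set SWCNT against PF68 on day 1 as the acute phase and on day 7 as the sub-chronic phase. Both arrays of a group are labelled biological replicates, with no animal named. The p-values therefore reflect array-to-array spread that could be technical, and precision is limited by having so few arrays. Levels are the deposited log2 signals, of which every array had a median of -0.628. A difference is SWCNT minus PF68 unless said otherwise, given ± its standard error from limma, and a gene is said to have risen or fallen only where limma's adjusted p over all 13853 genes was under 0.05.

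Glycolysis splits glucose into pyruvate and yields ATP without oxygen. Lactate dehydrogenase then turns pyruvate into lactate, which leaves the cell through monocarboxylate transporters. When oxygen is short, the prolyl hydroxylases that mark HIF-1 alpha for destruction slow down, and the stabilised factor raises transcription of glucose transporters, most glycolytic enzymes, regulators of mitochondria and secreted factors. HIF-1 alpha is controlled mainly as a protein, so its own transcript is not a measure of its activity. Activated macrophages and neutrophils in lung also rely heavily on glycolysis, and skeletal muscle is among the tissues richest in glycolytic enzymes.

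The factor binds short DNA elements that hold ACGTG or GCGTG, so RefSeq promoter windows (assembly GRCm38.p6, 250 bases before to 50 bases after a gene's start) were searched for these letters on both strands, CACGT and CACGC being the same letters on the other strand. A window was found for 30 of the 32 genes, and 28 of these 30 held at least 1 match in 1 of their windows. Bsg and Ndrg1 are only named. Of the 45 windows of the listed genes 84.4% held a match, against 43.8% of all 32851 windows of this length. The windows of the listed genes were also richer in G and C, with a median of 64.3% against 52.7%, and the part of base composition was not tested. A match is a description, not a site or a cause, and no match says only that these letters are not in this window. The windows of 4 genes are printed because the results turn on them: Ankrd37, Pfkl and Tpi1, whose SWCNT effect differed between the days, and Ldha, which was higher in SWCNT lungs on both days. Each reads 5′ to 3′ on the gene's strand, with matches in capitals and overlapping matches printed as 1 stretch. Ankrd37 lies at chr8:45999801-46000100 on the minus strand with 3 stretches, Pfkl at chr10:78009758-78010057 on the minus strand with 1, and Tpi1 at chr6:124814109-124814408 on the minus strand with 0. Ldha lies at chr7:46845554-46845853 on the plus strand with 5 stretches in the first of its 2 windows.
Ankrd37: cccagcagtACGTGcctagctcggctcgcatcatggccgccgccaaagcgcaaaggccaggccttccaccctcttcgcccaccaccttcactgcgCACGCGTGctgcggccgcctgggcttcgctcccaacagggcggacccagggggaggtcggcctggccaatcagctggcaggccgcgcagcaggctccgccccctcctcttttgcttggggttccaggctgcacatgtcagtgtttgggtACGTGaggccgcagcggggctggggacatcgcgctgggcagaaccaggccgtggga
Pfkl: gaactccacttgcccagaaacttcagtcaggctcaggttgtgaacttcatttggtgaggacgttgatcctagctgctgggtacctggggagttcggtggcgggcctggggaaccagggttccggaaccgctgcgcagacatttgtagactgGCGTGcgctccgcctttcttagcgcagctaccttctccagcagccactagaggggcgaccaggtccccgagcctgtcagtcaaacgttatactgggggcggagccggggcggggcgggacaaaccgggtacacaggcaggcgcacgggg
Tpi1: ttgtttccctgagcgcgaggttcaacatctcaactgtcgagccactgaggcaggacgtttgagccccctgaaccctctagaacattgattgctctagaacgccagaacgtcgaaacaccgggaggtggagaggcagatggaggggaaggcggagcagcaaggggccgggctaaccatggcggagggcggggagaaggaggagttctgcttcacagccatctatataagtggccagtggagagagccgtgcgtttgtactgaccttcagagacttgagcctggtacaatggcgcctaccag
Ldha: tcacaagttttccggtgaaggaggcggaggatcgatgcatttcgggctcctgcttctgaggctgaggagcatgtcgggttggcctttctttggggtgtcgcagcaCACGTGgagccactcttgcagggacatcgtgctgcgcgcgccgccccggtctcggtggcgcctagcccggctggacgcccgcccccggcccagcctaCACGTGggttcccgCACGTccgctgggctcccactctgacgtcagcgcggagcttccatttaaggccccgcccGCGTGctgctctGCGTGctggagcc

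On day 1, 9 of the 29 tested genes were higher in SWCNT lungs than in PF68 lungs, 0 were lower and 20 did not pass the test. Over all genes 2.17% passed, 0.931% higher and 1.23% lower. The median difference of the 29 was 0.56, against -0.02 over all genes. The genes that rose were the enzymes Pfkl, Tpi1, Aldoa, Pkm and Ldha of glycolysis and lactate formation, the mitochondrial regulators Ak4 and Pdk1, the collagen hydroxylase subunit P4ha1 and the transporter chaperone Bsg. At an unadjusted limma p under 0.05, 18 of the 29 were higher and 1, Pfkfb3, was lower, where 8.20% of all genes were higher and 10.4% lower. The 2 SWCNT arrays lay above both PF68 arrays for 20 of the 29 and below both for 4, and the groups overlapped for 5. Over all genes the groups did not overlap for 53.2%, with the SWCNT arrays above for 24.6% and below for 28.6%.

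**Figure D1:**
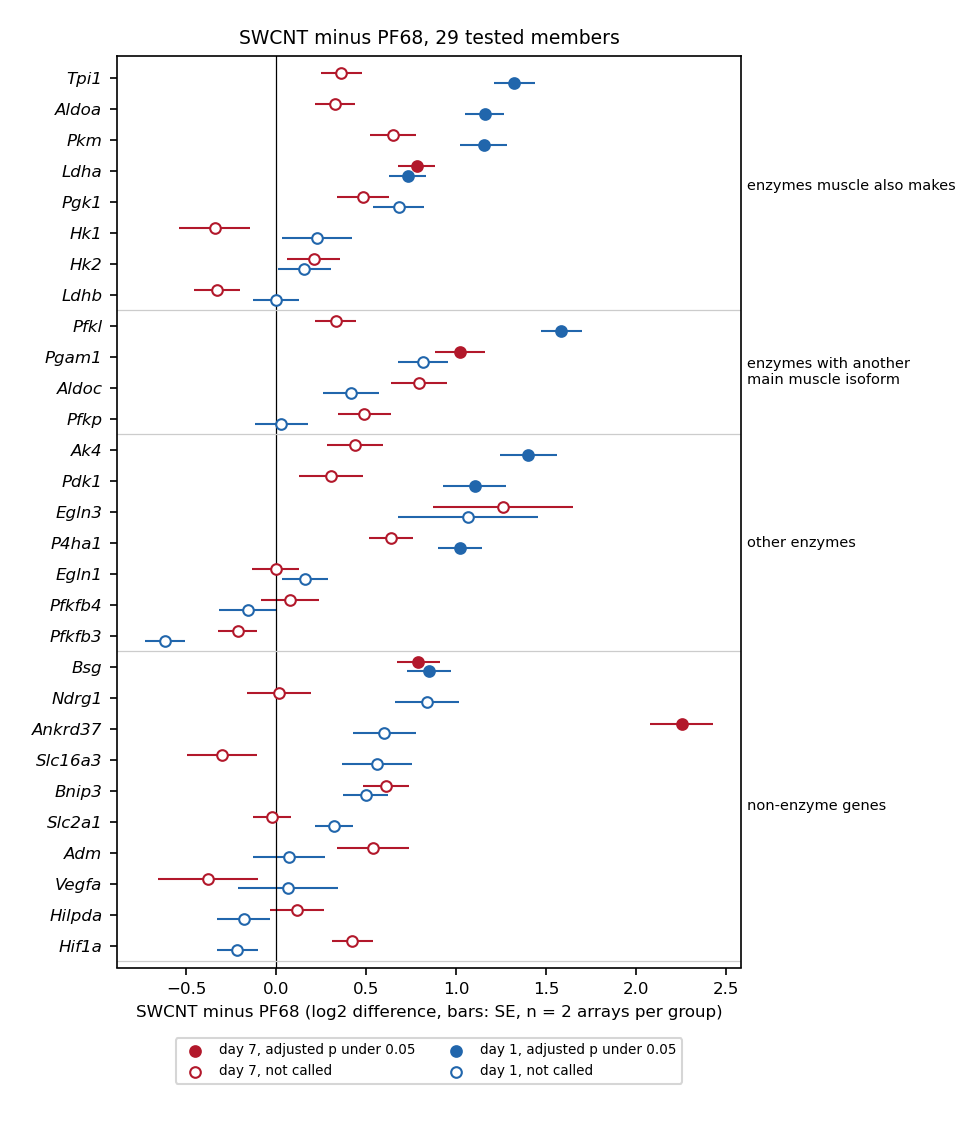
SWCNT minus PF68 for the 29 tested genes, as a log2 difference with its standard error (n = 2 arrays per group), day 7 in red and day 1 in blue, with filled points where limma's adjusted p was under 0.05. The 9 filled points of day 1 and the 4 of day 7 all lie to the right of 0, and Ankrd37 on day 7 stands farthest right at 2.25.

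The first steps of the pathway did not pass the test on day 1. Slc2a1, the basal glucose transporter, measured 2.62 and 2.66 on the SWCNT arrays and 2.31 and 2.32 on the PF68 arrays, a difference of 0.32 ± 0.10 (adjusted p = 0.188, limma). The hexokinases, which trap glucose as its phosphate, differed by 0.23 ± 0.20 for Hk1 and 0.16 ± 0.15 for Hk2.

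The phosphofructokinase step held the largest rise of the list. Pfkl, the liver type of this rate-setting enzyme, measured 4.41 and 4.56 on the SWCNT arrays and 2.84 and 2.97 on the PF68 arrays. Both SWCNT arrays lay well above both PF68 arrays, by 1.59 ± 0.12 or 3.0-fold (adjusted p = 0.00548, limma, n = 2 arrays per group). The 2 other Pfkl probe sets disagreed with each other, at -0.08 and 1.09, and averaging the probe sets gave a difference of 0.86 that no longer passed. The platelet type, Pfkp, had overlapping arrays and a difference of 0.03 ± 0.15. Of the enzymes that make and break down an activator of this step, Pfkfb3 measured 2.05 and 1.96 on the SWCNT arrays and 2.64 and 2.61 on the PF68 arrays. The SWCNT arrays lay below both PF68 arrays, and the difference of -0.62 ± 0.11 just missed the test (adjusted p = 0.0567, limma). Pfkfb4 differed by -0.16 ± 0.16.

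Of the middle and late steps, 3 of 6 tested genes rose on day 1. Aldoa, the aldolase of muscle and most other tissues, measured 6.48 and 6.56 on the SWCNT arrays and 5.28 and 5.44 on the PF68 arrays. Tpi1, triose-phosphate isomerase, measured 5.32 and 5.40 on the SWCNT arrays and 4.0 and 4.08 on the PF68 arrays. Pkm, pyruvate kinase of muscle and most other tissues, measured 5.64 and 5.73 on the SWCNT arrays and 4.46 and 4.59 on the PF68 arrays. The groups did not overlap for any of these 3 genes. Aldoa was higher by 1.16 ± 0.11 or 2.23-fold (adjusted p = 0.0111), Tpi1 by 1.32 ± 0.11 or 2.50-fold (adjusted p = 0.00804) and Pkm by 1.15 ± 0.13 or 2.22-fold (adjusted p = 0.0184; limma, n = 2 arrays per group). The probe sets of Aldoa, Tpi1 and Pgk1 can bind related transcripts. The other probe sets of Aldoa ranged from 0.32 to 1.02 and those of Tpi1 from 1.07 to 1.39. Pgam1, phosphoglycerate mutase of non-muscle tissue, measured 3.92 and 3.67 on the SWCNT arrays and 2.95 and 3.02 on the PF68 arrays, and its difference of 0.82 ± 0.14 missed the test narrowly (adjusted p = 0.0507, limma). Pgk1, phosphoglycerate kinase, differed by 0.68 ± 0.14 (adjusted p = 0.0858, limma), and Aldoc, the brain-type aldolase, by 0.42 ± 0.16. Gapdh, which was not tested, differed by 0.92, 1.15 and 1.25 in its 3′, middle and 5′ control probe sets, with no overlap between the groups' arrays.

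At the lactate step 2 of 4 genes rose on day 1. Ldha, the dehydrogenase subunit that favours lactate formation, measured 6.25 and 6.20 on the SWCNT arrays and 5.45 and 5.54 on the PF68 arrays, higher by 0.73 ± 0.10 or 1.66-fold (adjusted p = 0.0352, limma). Bsg, basigin, which escorts monocarboxylate transporters to the cell surface, measured 5.87 and 5.93 on the SWCNT arrays and 5.00 and 5.11 on the PF68 arrays, higher by 0.85 ± 0.12 (adjusted p = 0.0357, limma). In both genes the SWCNT arrays stood clear of the PF68 arrays. Ldhb, the subunit of oxidative tissues, had overlapping arrays and a difference of 0.00 ± 0.13. Slc16a3, a lactate exporter, measured 1.03 and 0.70 on the SWCNT arrays and 0.17 and 0.44 on the PF68 arrays, a difference of 0.56 ± 0.19 (adjusted p = 0.211, limma).

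Among genes that act on mitochondria, Pdk1 and Ak4 rose on day 1. Pdk1, a kinase that keeps pyruvate out of the mitochondrial cycle, measured 1.38 and 1.70 on the SWCNT arrays and 0.27 and 0.61 on the PF68 arrays, higher by 1.10 ± 0.18 (adjusted p = 0.0472, limma). Ak4, a mitochondrial adenylate kinase, measured 0.42 and 0.48 on the SWCNT arrays and -0.98 and -0.92 on the PF68 arrays, higher by 1.40 ± 0.16 (adjusted p = 0.0184, limma). Neither pair of groups overlapped, but the further probe sets of both genes scattered. Of the 4 others of Ak4, 3 had the opposite sign, over a range from -1.40 to 1.56, and both PF68 arrays were under the array median, from which the rise came to 1.08. Of these 3, those at -1.40 and -1.24 did not pass the signal filter (the array median reached on 2 or more arrays). The one at -0.35 did. Of the 3 others of Pdk1, 1 had the opposite sign, over a range from -0.14 to 0.33, and the mean over its probe sets differed by 0.35 and no longer passed. Without SWCNT day 1 array 1 or array 2 another probe set of Pdk1 was the brightest, and the difference was 0.12 or 0.07. Pdk1 passed in 8 of 21 alternative settings. Bnip3, which tags mitochondria for removal, differed by 0.50 ± 0.13 (adjusted p = 0.127, limma) with no overlap.

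The oxygen-sensing genes did not pass on day 1. Hif1a, the regulated subunit of the factor, measured 3.55 and 3.34 on the SWCNT arrays and 3.64 and 3.69 on the PF68 arrays, a difference of -0.22 ± 0.11 (adjusted p = 0.388, limma). Its 2 SWCNT arrays lay below both PF68 arrays. Egln1 and Egln3, the prolyl hydroxylases that mark HIF-1 alpha, differed by 0.16 ± 0.13 and 1.07 ± 0.39. Both PF68 arrays of Egln3 were under the array median, from which its difference came to 0.92.

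Of the other targets 1 of 6 rose on day 1. P4ha1, a catalytic subunit of the enzyme that hydroxylates collagen, measured 3.33 and 3.29 on the SWCNT arrays and 2.23 and 2.35 on the PF68 arrays. Its groups stood apart by 1.02 ± 0.12 or 2.03-fold (adjusted p = 0.0224, limma), and its other probe set gave 1.00. Ndrg1, a gene induced by several stresses, differed by 0.84 ± 0.18 (adjusted p = 0.0877, limma) and Ankrd37, an ankyrin repeat gene induced by HIF-1, by 0.60 ± 0.17 (adjusted p = 0.155, limma). Vegfa, the endothelial growth factor, Adm, the vasodilator adrenomedullin, and Hilpda, an inhibitor of fat breakdown on lipid droplets, differed by 0.06 ± 0.28, 0.07 ± 0.20 and -0.18 ± 0.15. The probe sets that represent Vegfa and Adm had overlapping arrays on day 1. For several genes that did not pass, other probe sets that passed the signal filter differed on day 1. They gave 0.41 for Vegfa, 0.50 for Adm, 0.56 for Hk1, 1.41 for Egln1, and 0.70 and 1.27 for Pgk1. Those of Ldhb ran from -0.29 to 0.24, and those of Egln3 and Hif1a gave 0.16 and -0.22.

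Enzymes and non-enzymes were set apart because skeletal muscle expresses many of the enzymes. Of the 8 tested glycolytic enzymes that striated muscle also makes, 4 rose on day 1 (Aldoa, Tpi1, Pkm and Ldha), with a median difference of 0.71. Of the 4 tested enzymes whose main muscle isoform is another gene, 1 rose (Pfkl), with a median of 0.62. Of the 7 other enzymes 3 rose (Pdk1, Ak4 and P4ha1), with a median of 1.02. Of the 10 non-enzyme genes 1 rose (Bsg), with a median of 0.41. The classes were compared by these counts and medians alone, and no test was run between them. At an unadjusted limma p under 0.05, 5 of the 8 enzymes shared with muscle and 3 of the 4 with another main muscle isoform were higher. So were 4 of the 7 other enzymes, with 1 lower, and 6 of the 10 non-enzyme genes. Over all genes 8.20% were higher and 10.4% lower at that p, and 0.931% passed as higher and 1.23% as lower.

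**Figure D2:**
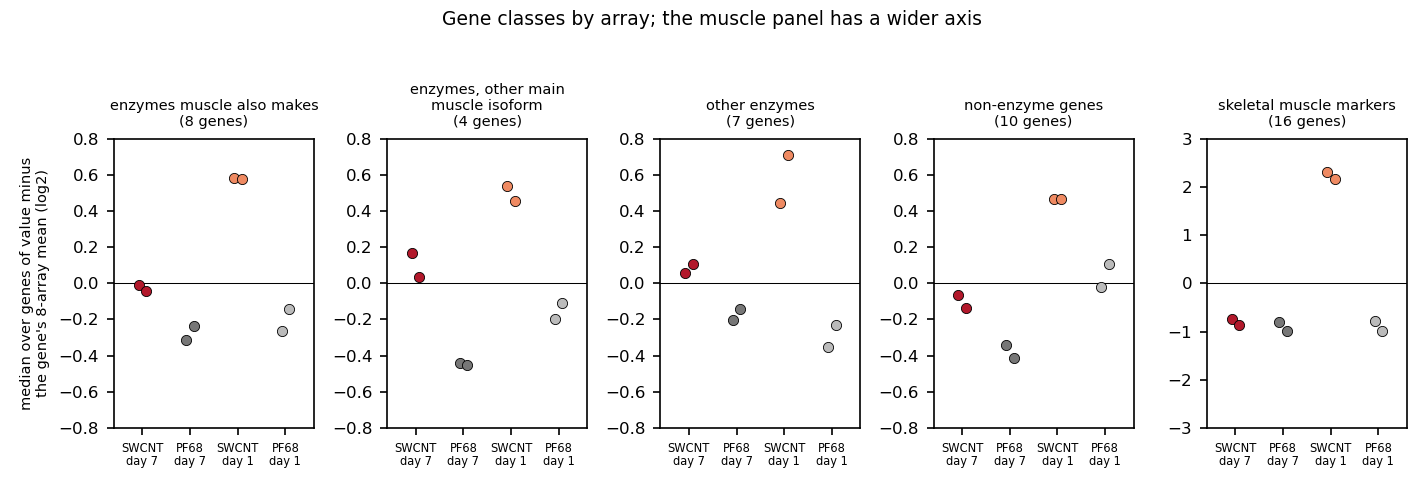
Median over the genes of each class of the value minus that gene's mean over the 8 arrays (log2), 1 point per array, by group, with skeletal muscle markers on a wider axis at the right. On the SWCNT day 1 arrays all 4 classes lie between 0.44 and 0.71, and the muscle markers at 2.16 and 2.32, against -1.0 to -0.75 on the other 6 arrays.

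Markers of skeletal and cardiac muscle, stratified epithelium and adipose tissue moved with the day 1 rise. Of 16 tested skeletal muscle markers 12 were higher in SWCNT lungs on day 1 and 0 lower. Over all genes 0.931% were higher and 1.23% lower. The summed level of the 18 muscle markers measured was 6.96 to 7.01 (log2) on the SWCNT arrays against 3.62 to 3.63 on the PF68 arrays. On the PF68 arrays 12 of the 18 lay below the array median. Cardiac muscle markers summed to 7.28 to 7.35 on the SWCNT arrays and 6.16 to 6.24 on the PF68 arrays (5 of 10 higher). Markers of stratified epithelium summed to 5.12 to 5.21 on the SWCNT arrays and 1.55 to 1.73 on the PF68 arrays (4 of 6 higher), and adipose markers to 6.59 to 6.64 on the SWCNT arrays and 4.23 to 4.30 on the PF68 arrays (4 of 4 higher). Of the muscle's own isoforms and glycogen genes 1 of 8 rose, the muscle enolase Eno3 (1.73 ± 0.15, adjusted p = 0.00804, limma), with a list median of 0.64. All 8 differences were above 0, and 5 of the 8 were higher at an unadjusted limma p under 0.05, where 8.20% of all genes were. Pfkm, the muscle counterpart of Pfkl and named after its values were seen, differed by 0.77 ± 0.17 (adjusted p = 0.0927, limma). Beta-actin's 3′ signal exceeded its 5′ signal, a gap that widens as RNA shortens, by 1.34 ± 0.03 in SWCNT lungs and 2.02 ± 0.02 in PF68 lungs on day 1 (SD, n = 2 each). The part of these markers and of RNA quality in the rise of the enzymes was not tested. In bulk tissue, fewer cells of a type and less RNA per cell cannot be told apart.

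The day 1 calls depended on the number of arrays. With 1 array left out the count fell to 0 without SWCNT day 1 array 1, SWCNT day 1 array 2 or PF68 day 1 array 1 (14 at an unadjusted limma p under 0.05 in each case), to 1 without PF68 day 1 array 2, and to 5 without SWCNT day 7 array 1 or array 2. Over the 21 alternative settings the differences of Pfkl, Aldoa, Tpi1 and Pkm stayed between 0.80 and 1.66, and each passed in 15 or 16. The other day 1 calls held less often: Ldha passed in 8 of 21, Bsg in 10 of 21, P4ha1 in 11 of 21 and Ak4 in 12 of 20. Ldha and Bsg did not pass on day 1 with the arrays scaled to the hybridization spikes.

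On day 7, 4 of the 29 tested genes were higher in SWCNT lungs than in PF68 lungs, 0 were lower and 25 did not pass. They were Ankrd37, Pgam1, Bsg and Ldha. Over all genes 2.18% passed, 1.40% higher and 0.780% lower. The median difference of the 29 was 0.36, against 0.02 over all genes. At an unadjusted limma p under 0.05, 17 were higher and 1, Ldhb, was lower, where 13.1% of all genes were higher and 10.1% lower. The SWCNT arrays lay above both PF68 arrays for 18 of the 29 and below both for 4, with 7 overlapping, where 53.2% of all genes did not overlap, 28.2% above and 25.0% below.

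**Figure D3:**
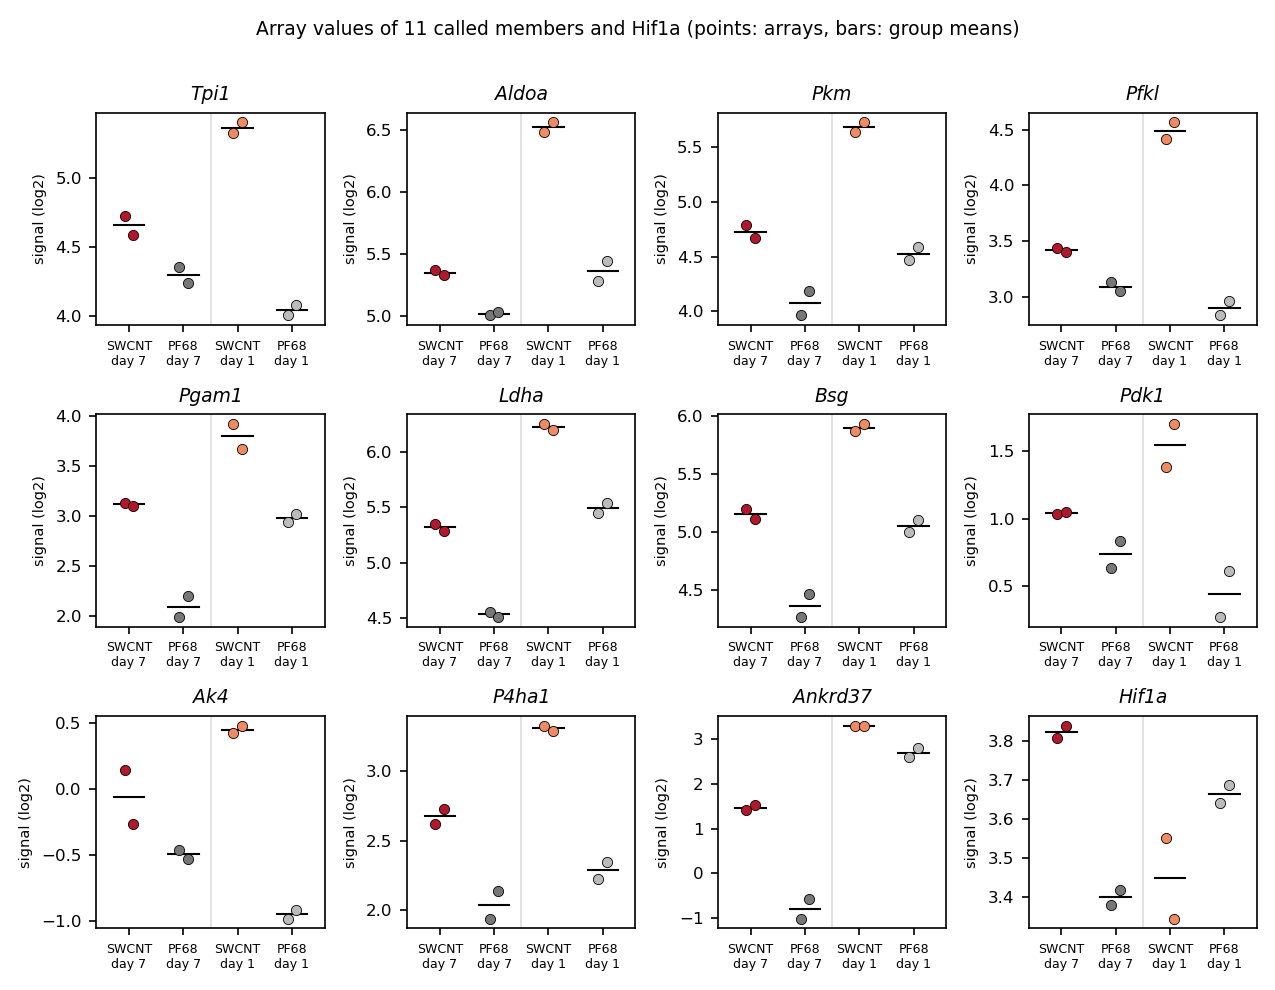
Log2 signal on every array (points) and group means (bars) of the 11 genes that passed on either day and of Hif1a, each panel with its own axis. Ankrd37 lies at -1.01 and -0.57 on the PF68 day 7 arrays and above 1.4 on the other 6, and Tpi1, Aldoa, Pkm and Pfkl are highest on the SWCNT day 1 arrays.

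Ankrd37 had the largest difference of the list on day 7. It measured 1.42 and 1.51 on the SWCNT arrays and -1.01 and -0.57 on the PF68 arrays. The SWCNT arrays stood far above, by 2.25 ± 0.17 or 4.77-fold (adjusted p = 0.0140, limma, n = 2 arrays per group). One PF68 array was under the array median, and measured from there the difference came to 2.06. Ankrd37 had a single probe set, so no second probe set could be compared. Its promoter window, printed above, holds 3 stretches with the searched letters.

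The other 3 genes that rose on day 7 belong to the end of glycolysis and lactate transport. Pgam1 measured 3.13 and 3.10 on the SWCNT arrays and 1.99 and 2.20 on the PF68 arrays, higher by 1.02 ± 0.14 or 2.03-fold (adjusted p = 0.0384, limma). Ldha measured 5.35 and 5.29 on the SWCNT arrays and 4.56 and 4.51 on the PF68 arrays, higher by 0.78 ± 0.10 or 1.72-fold (adjusted p = 0.0362, limma). Bsg measured 5.20 and 5.11 on the SWCNT arrays and 4.26 and 4.46 on the PF68 arrays, higher by 0.79 ± 0.12 or 1.73-fold (adjusted p = 0.0426, limma). The groups did not overlap for any of the 3, each of which had a single probe set. Ldha and Bsg passed on both days, which is 50.0% of the day 7 calls and 22.2% of the day 1 calls. Their differences on day 7 were close to those of day 1, with a day 7 minus day 1 difference of 0.05 ± 0.15 for Ldha (adjusted p = 0.879) and -0.06 ± 0.17 for Bsg (adjusted p = 0.876, limma).

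Tpi1, Aldoa and Pfkl, which rose on day 1, did not pass on day 7. Tpi1 measured 4.73 and 4.59 on the SWCNT arrays and 4.35 and 4.24 on the PF68 arrays, a difference of 0.36 ± 0.11 (adjusted p = 0.140, limma). Aldoa measured 5.37 and 5.33 on the SWCNT arrays and 5.01 and 5.03 on the PF68 arrays, 0.33 ± 0.11 apart. The other probe sets of Aldoa ran from 0.30 to 0.80 on day 7, and one almost as bright gave 0.80 on both days. Pfkl measured 3.44 and 3.41 on the SWCNT arrays and 3.13 and 3.05 on the PF68 arrays, 0.33 ± 0.12 apart. In all 3 the SWCNT arrays still lay above both PF68 arrays. Pkm, with 0.65 ± 0.13 (adjusted p = 0.0644), P4ha1, with 0.64 ± 0.12 (adjusted p = 0.0616), Aldoc, with 0.79 ± 0.16 (adjusted p = 0.0631), and Bnip3, with 0.61 ± 0.13 (adjusted p = 0.0682, limma), missed the test by little. Pgk1 differed by 0.48 ± 0.14, Pfkp by 0.49 ± 0.15, Ak4 by 0.44 ± 0.16 and Pdk1 by 0.30 ± 0.18.

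Of the remaining genes of day 7, Hif1a measured 3.81 and 3.84 on the SWCNT arrays and 3.38 and 3.42 on the PF68 arrays, a difference of 0.42 ± 0.11 (adjusted p = 0.107, limma). Its arrays did not overlap, and in this probe set the difference had the opposite sign to that of day 1. A dimmer Hif1a probe set that passed the signal filter gave -0.35 on day 7 and -0.22 on day 1. Egln3 differed by 1.26 ± 0.39 (adjusted p = 0.134, limma), with PF68 arrays at -1.73 and -0.51, the first under the array median. Measured from that median the Egln3 difference came to 0.71, and its other probe set gave 0.65. Adm differed by 0.54 ± 0.20, Hk2 by 0.21 ± 0.15, Hilpda by 0.12 ± 0.15, Pfkfb4 by 0.08 ± 0.16, Ndrg1 by 0.02 ± 0.18 and Egln1 by 0.00 ± 0.13. Slc2a1, at -0.02 ± 0.10, Pfkfb3, at -0.21 ± 0.11, Slc16a3, at -0.30 ± 0.19, Ldhb, at -0.33 ± 0.13, Hk1, at -0.34 ± 0.20, and Vegfa, at -0.38 ± 0.28, were on the other side of 0, and none passed. For several of these genes, other probe sets that passed the signal filter disagreed on day 7. They gave 0.54 and 0.95 for Slc2a1, 0.42 for Hk1 and 0.42 for Vegfa. Those of Ndrg1 ran from -0.13 to 1.32, and those of Ldhb stayed below 0, from -0.93 to -0.45.

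By class, 1 of the 8 enzymes shared with muscle rose on day 7 (Ldha, median 0.34) and 1 of the 4 enzymes with another main muscle isoform (Pgam1, 0.64). Of the 7 other enzymes 0 rose (0.30), and of the 10 non-enzyme genes 2 (Bsg and Ankrd37, 0.27). Over all genes 1.40% were higher and 0.780% lower. At an unadjusted limma p under 0.05, 5, 4, 3 and 5 genes of these classes in turn were higher, where 13.1% of all genes were. At that p 1 of the enzymes shared with muscle, Ldhb, was lower, where 10.1% of all genes were. Skeletal muscle markers overlapped between the groups on day 7, where they summed to 3.52 to 3.58 on the SWCNT arrays and 3.46 to 3.73 on the PF68 arrays, with 1 of 16 higher. The muscle isoforms and glycogen genes had a median difference of -0.34, with 0 of 8 called by limma (2 lower at an unadjusted p under 0.05). Macrophage markers summed to 7.95 to 7.96 on the SWCNT arrays and 7.26 to 7.31 on the PF68 arrays (5 of 9 higher), and neutrophil markers to 7.12 on both SWCNT arrays against 8.26 and 8.27 on the PF68 arrays (4 of 7 lower). Lung epithelium markers summed to 10.2 on both SWCNT arrays and to 10.1 and 10.3 on the PF68 arrays. The gap between the 3′ and 5′ signals of beta-actin was 2.97 ± 0.04 in SWCNT lungs and 3.27 ± 0.03 in PF68 lungs (SD, n = 2 each), so the direction of this gap was that of day 1. Adipose markers summed to 4.29 to 4.46 on the SWCNT arrays and 5.05 to 5.06 on the PF68 arrays (1 of 4 lower), the opposite direction to day 1. The part of macrophages, neutrophils, adipose tissue and RNA quality in the day 7 results was not tested.

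The day 7 calls were fewer still with 1 array left out: 1 without PF68 day 7 array 1 or array 2, and 0 without either array of SWCNT day 7 (11 at an unadjusted limma p under 0.05 in each case), SWCNT day 1 (17) or PF68 day 1 (16). Ankrd37 passed in 13 of 20 alternative settings, with differences from 2.03 to 2.86. Ldha and Bsg passed in 7 of 21 each and Pgam1 in 8 of 21. Scaling the arrays to the hybridization spikes moved every day 7 difference up by 0.61, and 24 of the 29 then passed, all higher. In that setting 6623 of all 13853 genes passed as higher and 68 as lower.

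The difference between the days was tested itself, as the day 7 SWCNT minus PF68 difference less that of day 1. Of the 29 genes 1 was higher (Ankrd37), 2 were lower (Pfkl and Tpi1) and 26 did not pass, where 2.35% of all genes passed. At an unadjusted limma p under 0.05, 3 of the 29 were higher and 8 lower, where 12.2% of all genes were higher and 8.60% lower. Pfkl's difference was smaller on day 7 by 1.25 on the log2 scale (-1.25 ± 0.16, adjusted p = 0.0331, limma), and Tpi1's by 0.96 (-0.96 ± 0.16, adjusted p = 0.0491, limma). Ankrd37's was larger by 1.65 ± 0.24 (adjusted p = 0.0409, limma). Next came Aldoa at -0.83 ± 0.16 (adjusted p = 0.0602) and Ak4 at -0.96 ± 0.22 (adjusted p = 0.0878, limma), which did not pass. The other probe sets of Aldoa ran from -0.54 to 0.35 in this contrast. Hif1a had 0.64 ± 0.16 (adjusted p = 0.106, limma), and its other probe set that passed the signal filter had -0.14. Skeletal muscle markers moved in the direction of Pfkl and Tpi1, with 10 of 16 lower in the same contrast, and their part was not tested. None of the 3 calls was kept when any 1 array was left out (7 to 13 of the 29 genes at an unadjusted limma p under 0.05). Scaling to the spikes moved every such difference by 0.90, and 15 genes then passed, all higher, with Ankrd37 but neither Pfkl nor Tpi1 among them. In that setting 7227 of all 13853 genes passed as higher and 83 as lower.

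Between the days, many of the listed genes were lower on day 7 in both treatments. In SWCNT lungs 12 of 29 fell on day 7 relative to day 1 and 0 rose (2 higher at an unadjusted limma p under 0.05, as were 19.6% of all genes), where 6.70% of all genes fell and 9.59% rose. In PF68 lungs 7 fell and 1 rose, where 8.86% of all genes fell and 8.86% rose. The 6 genes called in both treatments are 50.0% of the SWCNT calls and 75.0% of the PF68 calls. All 6, Ankrd37, Hilpda, Bnip3, Ldha, Bsg and Pgam1, were lower on day 7. In SWCNT lungs the day 7 arrays lay above both day 1 arrays for 4 of the 29 and below for 20, with 5 overlapping, where 62.8% of all genes did not overlap, 36.6% above and 26.2% below. In PF68 lungs they lay above for 7 and below for 13, with 9 overlapping, where 61.1% of all genes did not overlap, 32.5% above and 28.6% below. The median of the 29 was -0.51 in SWCNT lungs and -0.25 in PF68 lungs, against 0.09 and 0.04 over all genes.

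**Figure D4:**
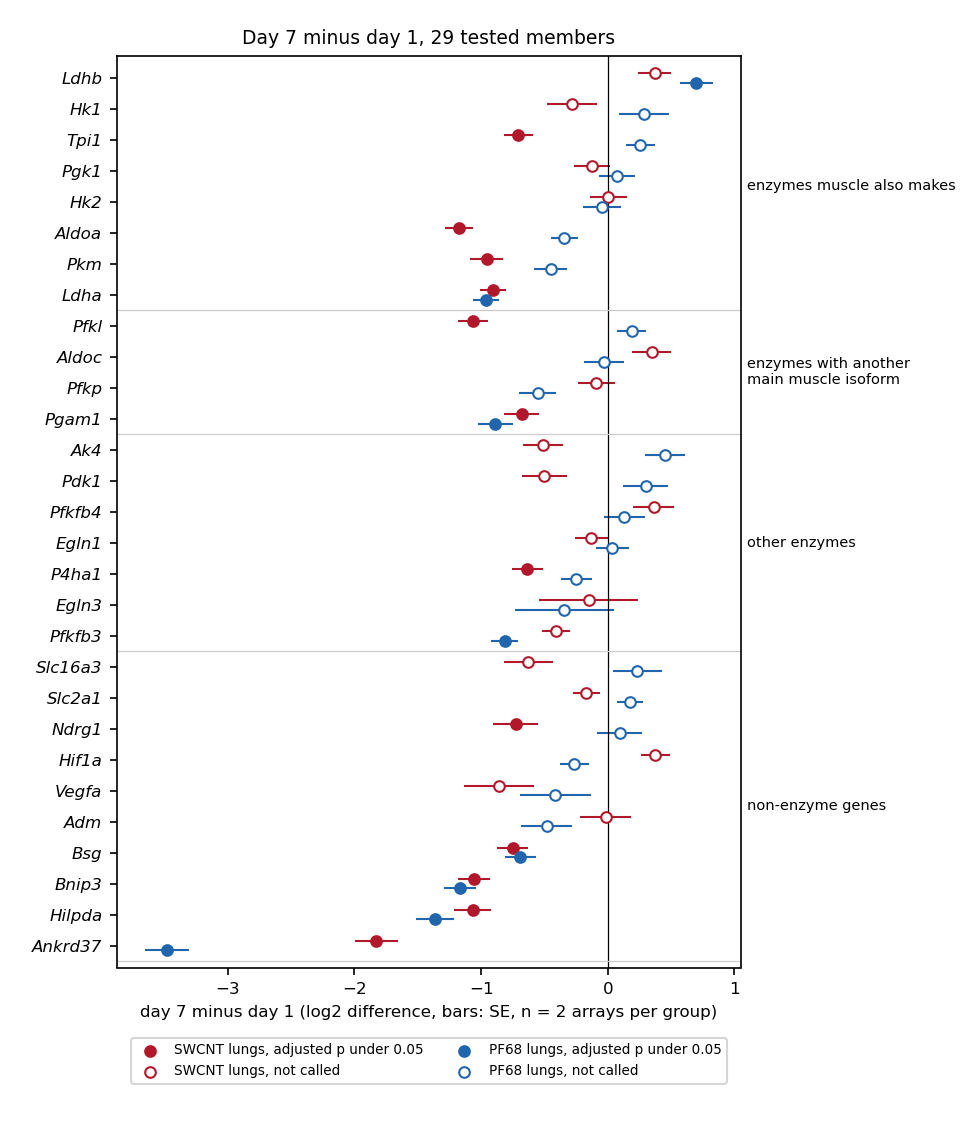
Day 7 minus day 1 for the 29 tested genes as a log2 difference with its standard error (n = 2 arrays per group), SWCNT lungs in red and PF68 lungs in blue, filled where limma's adjusted p was under 0.05. Ankrd37 lies farthest left in both, at -1.83 in SWCNT lungs and -3.48 in PF68 lungs, and Ldhb in PF68 lungs is the only filled point to the right of 0.

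Ankrd37 had the largest fall between days in either treatment. In SWCNT lungs it measured 1.42 and 1.51 on day 7 and 3.29 on both arrays of day 1, a fall of 3.55-fold (-1.83 ± 0.17, adjusted p = 0.00642, limma). In PF68 lungs it measured -1.01 and -0.57 on day 7 and 2.59 and 2.79 on day 1, a fall of 11.1-fold (-3.48 ± 0.17, adjusted p = 0.00306, limma). On day 7 both treatments measured below either treatment on day 1. Hilpda fell by 1.07 in SWCNT lungs (-1.07 ± 0.15, adjusted p = 0.0112, limma) and by 1.36 in PF68 lungs (-1.36 ± 0.15, adjusted p = 0.00885, limma). Bnip3 fell by 1.05 in SWCNT lungs (-1.05 ± 0.13) and by 1.17 in PF68 lungs (-1.17 ± 0.13). Hilpda and Bnip3 thus moved between days and did not pass between treatments on either day.

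Ldha, Bsg and Pgam1 differed by treatment and by day at once. In SWCNT lungs Ldha fell by 0.91, Bsg by 0.75 and Pgam1 by 0.68 between the days. In PF68 lungs Ldha fell by 0.96, Bsg by 0.69 and Pgam1 by 0.89. The day 7 SWCNT means of these 3 genes lay near the day 1 PF68 means, at 5.32 and 5.5 for Ldha, 5.15 and 5.05 for Bsg and 3.12 and 2.98 for Pgam1. Of the enzymes that led on day 1, Aldoa (-1.17 ± 0.11), Pfkl (-1.06 ± 0.12), Pkm (-0.95 ± 0.13), Tpi1 (-0.71 ± 0.11) and P4ha1 (-0.64 ± 0.12) fell in SWCNT lungs. In PF68 lungs the same 5 differed by -0.34, 0.19, -0.45, 0.25 and -0.25, and none passed. The other probe sets of Aldoa ran from -0.99 to 0.13 in PF68 lungs, and one almost as bright gave -0.75. There the other probe set of P4ha1 gave -0.60, those of Pfkl -0.18 and -0.03, and those of Tpi1 -0.02 and 0.16. Ndrg1 fell in SWCNT lungs (-0.73 ± 0.18), Pfkfb3 in PF68 lungs (-0.81 ± 0.11), and Ldhb rose in PF68 lungs (0.70 ± 0.13, adjusted p = 0.0205, limma).

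**Figure D5:**
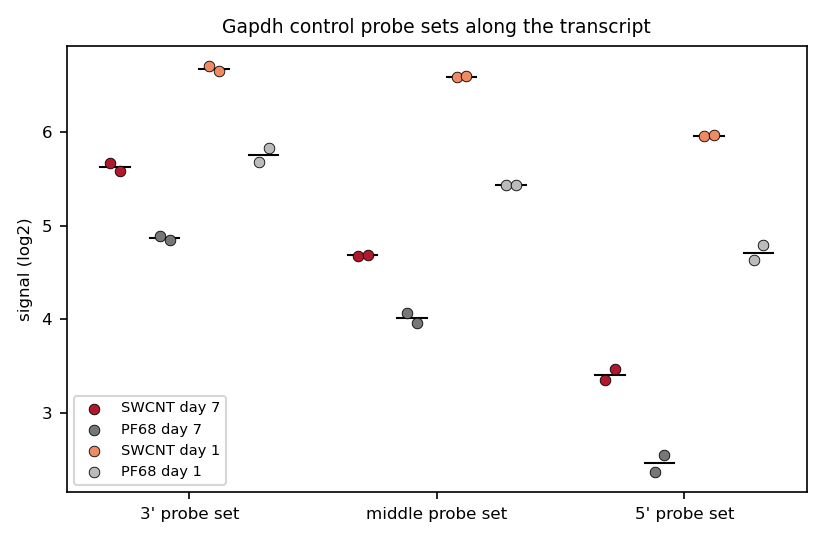
Log2 signal of Gapdh in its 3 control probe sets, placed from the 3′ to the 5′ end of the transcript, on every array (points) with group means (bars). In each probe set the order of the group means is SWCNT day 1, PF68 day 1, SWCNT day 7 and PF68 day 7 from the highest down, and day 7 falls away more steeply toward the 5′ end.

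Markers of other cell types moved with the day as well. In SWCNT lungs 15 of 16 tested skeletal muscle markers, 8 of 10 cardiac muscle markers, 4 of 4 adipose markers and 4 of 6 markers of stratified epithelium were lower on day 7 than on day 1. Neutrophil markers summed to 7.12 on both SWCNT day 7 arrays and to 8.35 and 8.37 on the SWCNT day 1 arrays (6 of 7 lower), and endothelial markers to 7.09 to 7.11 on SWCNT day 7 and 7.42 to 7.52 on SWCNT day 1 (4 of 7 lower). Macrophage markers summed to 7.95 to 7.96 on SWCNT day 7 and 7.41 to 7.5 on SWCNT day 1 (6 of 9 higher and 1 lower). In PF68 lungs 2 of 16 skeletal muscle, 4 of 10 cardiac muscle, 5 of 9 macrophage, 2 of 7 endothelial and 1 of 7 neutrophil markers were lower on day 7, and 2 of 4 adipose markers and 1 of 6 of stratified epithelium were higher. Of 8 lung epithelium markers 2 were higher and 1 lower in PF68 lungs, and 1 higher and 1 lower in SWCNT lungs. Of 3 erythroid markers 1 was lower in PF68 lungs, and 1 was higher and 1 lower in SWCNT lungs. Over all genes 8.86% fell and 8.86% rose in PF68 lungs, and 6.70% fell and 9.59% rose in SWCNT lungs. The part of these markers in the falls between days was not tested.

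Signs of RNA length moved with the day. Gapdh was lower on day 7 by 1.05, 1.91 and 2.55 log2 units in SWCNT lungs (-1.05, -1.91 and -2.55 for its 3′, middle and 5′ probe sets) and by 0.88, 1.42 and 2.25 in PF68 lungs (-0.88, -1.42 and -2.25), so the size depended on where in the transcript it was read. The 3′ minus 5′ signal of Gapdh was 2.21 ± 0.15 in SWCNT day 7, 2.41 ± 0.16 in PF68 day 7, 0.716 ± 0.051 in SWCNT day 1 and 1.04 ± 0.01 in PF68 day 1 (SD, n = 2 each). Probe sets of other genes also disagreed on the day effect. In PF68 lungs those of Ndrg1 ran from -1.81 to 0.09, of Hk1 from -1.41 to 0.29 and of Slc2a1 from -1.17 to 0.18. The part of RNA length in the falls between days was not tested, and the day and any handling that went with it cannot be told apart. Without PF68 day 1 array 2 the PF68 count was 0 (9 at an unadjusted limma p under 0.05) and without PF68 day 1 array 1 it was 1. The SWCNT count was 6 without SWCNT day 1 array 1, 4 without SWCNT day 1 array 2, 3 without SWCNT day 7 array 1 and 0 without SWCNT day 7 array 2 (13 at an unadjusted limma p under 0.05). The spike scaling, which moved every PF68 difference between days by -0.76, gave 23 PF68 calls, all lower. Over all 13853 genes it gave 7272 lower and 65 higher.

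Other genes of the same pathways were counted from lists made by function. Of 14 other genes of glycolysis, 0 passed between treatments on either day (2 higher at an unadjusted limma p under 0.05 on day 1, and 2 higher and 2 lower on day 7). Of 23 other hypoxia-responsive genes, 2 rose on day 1: Mif, a cytokine, by 1.24 ± 0.11, and Tfrc, the transferrin receptor, by 0.79 ± 0.11. On day 7 again 2 of 23 rose: Lox, which crosslinks collagen, by 1.52 ± 0.10, and Cited2, which competes with HIF-1 alpha for its coactivator, by 0.84 ± 0.12. Of 12 genes of the HIF machinery, 0 passed on either day (1 lower at an unadjusted limma p under 0.05 on day 1, and 3 higher and 2 lower on day 7). Between days, 10 of 23 hypoxia-responsive genes outside the list were lower on day 7 and 1 was higher in SWCNT lungs, where 6.70% of all genes fell and 9.59% rose. In PF68 lungs 8 of 23 were lower and 3 higher, where 8.86% of all genes fell and 8.86% rose. Lox was lower by 1.80 in SWCNT lungs (-1.80 ± 0.10) and by 3.04 in PF68 lungs (-3.04 ± 0.10), and Edn1, the vasoconstrictor endothelin, by 2.50 in SWCNT lungs (-2.50 ± 0.12) and by 2.51 in PF68 lungs (-2.51 ± 0.12). Lox, like Ankrd37, had a larger SWCNT difference on day 7 than on day 1, by 1.24 ± 0.15 (adjusted p = 0.0270, limma). Pdk4, a starvation-induced relative of Pdk1, fell in both treatments (-2.43 ± 0.19 in SWCNT lungs and -1.16 ± 0.19 in PF68 lungs).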

How the data were processed

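Total RNA of 8 lung samples was hybridized to single-colour Affymetrix arrays, per the labels' protocols. Values deposited by the authors were taken as log2 signals, with RMA named in the submitters' processing notes and its version not given in the sources used here. The log base is not stated, and another base would scale every difference by 1 factor. All arrays shared 1 distribution of values, so differences are relative to it. Of 45101 probe sets, 64 were controls, and 8 with a missing value were dropped. Probe sets that reached the array median on 2 or more of 8 arrays were kept, and the brightest represented its gene, which left 13853 genes. No background flags were given, so values under the median are dim, not absent. Gene names came from the platform's annotation table and RefSeq.

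A model of group means over the 8 arrays was fitted in limma 3.58.1 under R 4.3.3 (lmFit, then eBayes, with 1.81 prior and 4 residual degrees of freedom). Benjamini-Hochberg adjustment ran over all 13853 genes. An exact permutation test of 2 arrays against 2 cannot go below p = 0.333, two-sided, and was not used. Groups came from the labels. Alternatives covered scaling, filter, choice of probe set, variance model, threshold and 1 array left out.

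Every listed gene is named. Of the other pathway lists, up to 4 called genes with the largest differences per contrast could be named, and of the cell type markers only counts and summed levels are given. The genes and lists were chosen with earlier results of these data known, and no list was tested as a set. Promoter sequences are RefSeq's, and figures were drawn with matplotlib 3.10.9.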

Additional observations from a re-analysis of the deposited data

Results flagged for a closer look

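The SWCNT minus PF68 difference itself differed between day 7 and day 1 for 3 of the 29 tested genes (limma, adjusted p under 0.05). Pfkl, the liver-type phosphofructokinase, had a day 7 minus day 1 value of -1.25, with differences of 0.33 on day 7 and 1.59 on day 1. Of its further probe sets on day 1, 1 of 2, a dim one, had the opposite sign. Tpi1, triose-phosphate isomerase, had -0.96, with 0.36 on day 7 and 1.32 on day 1, and all 3 of its probe sets were higher in SWCNT lungs on day 1. Ankrd37, the ankyrin repeat gene induced by HIF-1, had 1.65, with 2.25 on day 7 and 0.60 on day 1. Its PF68 day 7 arrays, at -1.01 and -0.57, were the lowest of the 8.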

How the results depend on the processing

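Same-numbered arrays did not deviate together (correlations from -0.006 to 0.012), so the replicate block is only an alternative. The day 1 count of 9 became 5 with no filter, 15 with a variance trend and robust fit, 3 with the replicate block, 0 when only the groups compared were fitted (19 at an unadjusted limma p under 0.05), and 0 to 7 with 1 array left out. The day 7 count of 4 became 24 with spike scaling, 8 with the filter on all 8 arrays, 15 with trend and robust fit, 8 at a threshold of 0.1, 2 at a log2 difference of 1, 0 with only the groups compared (11 unadjusted), 0 to 1 with 1 array left out, and 1 with no filter, with the mean over probe sets, with array weights or with the replicate block. The count of 3 that differed between days became 15 with spike scaling, 7 with trend and robust fit, 5 at 0.1, and 0 with no filter, the mean over probe sets, the replicate block or 1 array left out. The PF68 count of 8 between days became 23 with spike scaling, 3 at a log2 difference of 1, 0 with only the groups compared and 0 to 9 with 1 array left out. The SWCNT count of 12 became 5, 0 and 0 to 12 for the last 3 of these. In fits of only the groups compared and with an array left out, fewer arrays inform the spread. The cause of the other changes was not tested. Counts over all genes moved as well. On day 1, 300 became 123 of 18191 with no filter, 1254 with trend and robust fit and 102 with the replicate block. With only the groups compared the count over all genes was 57 on day 1 and 0 on day 7. In that setting it was 0 between days in PF68 lungs and 7 in SWCNT lungs. On day 7, 302 became 1177 of 9799 with the filter on all 8 arrays, 1617 with trend and robust fit and 1255 at 0.1. The 302 became 24 with no filter, 97 with the mean over probe sets, 102 with array weights and 15 with the replicate block. For the difference between the days, 325 became 1382 with trend and robust fit, 50 with no filter and 30 with the replicate block. At a log2 difference of 1, 708 passed between days in PF68 lungs and 660 in SWCNT lungs. With spike scaling, of all 13853 genes 6691 passed on day 7, 7310 for the difference between the days and 7337 between days in PF68 lungs.

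Spike scaling moved the day 1 median of the 29 genes to 0.27, of the enzymes shared with muscle to 0.41 and of the non-enzyme genes to 0.12, and on day 7 to 0.97, 0.96 and 0.88. Slc2a1 and Egln1 then reversed on day 7 to 0.59 and 0.61. The filter on all 8 arrays gave medians of 0.46 (all) and 0.32 (non-enzyme) on day 1 and 0.12 (non-enzyme) on day 7. The mean over probe sets gave 0.78 (shared with muscle, day 1) and 0.38 (non-enzyme, day 7). Leaving out probe sets that bind related transcripts gave 0.94 (shared with muscle) and 0.50 (non-enzyme) on day 1, and 0.34 (non-enzyme) on day 7. With 1 array left out the median of all 29 was 0.46 to 0.60 on day 1 and 0.31 to 0.42 on day 7, and that of the enzymes shared with muscle 0.33 to 0.42 on day 7. A difference that passed in neither setting was given no direction.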

Other observations

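Probe sets of 1 gene did not always tell the same story. For 17 of the tested genes 31 further probe sets could be read. Their median SWCNT minus PF68 difference on day 1 was 0.56, where the probe sets that represent these 17 genes had a median of 0.68, and 27 of 31 had the sign of their gene's representative. On day 7 the medians were 0.30 and 0.33, with 21 of 31 of the same sign. For day 7 minus day 1 the medians were -0.75 and -0.28 in SWCNT lungs, with 27 of 31 of the same sign, and -0.29 and 0.07 in PF68 lungs, with 14 of 31. Pdgfb, a growth factor gene among the other hypoxia-responsive genes, had a smaller SWCNT difference on day 7 than on day 1 (-1.03 ± 0.17, adjusted p = 0.0469, limma), and Ddit4, an inhibitor of growth signalling, a larger one (1.03 ± 0.17, adjusted p = 0.0483, limma).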
